A study of Caenorhabditis elegans with 4 samples.

Results

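The 6 myosin heavy chain genes followed here, *myo-3*, *unc-54*, *myo-1*, *myo-2*, *nmy-1* and *nmy-2*, were taken by name from a table of 42048 *C. elegans* genes, and each was found once. RNA came from 2 cultures of embryos whose mothers carried the *meg-1(vr10)* allele and were fed bacteria making *meg-2* dsRNA (*meg-1 meg-2*), and from 2 cultures of N2 embryos whose mothers were fed the empty L4440 vector (wild type). Mothers were grown on these bacteria from synchronized L1 larvae at 20°C until they were young adults, and their embryos were freed by bleaching. *vr10* removes a part of *meg-1* and *meg-2* was depleted by RNAi, so the *meg-1 meg-2* group is not a clean deletion of both genes. MEG-1 and MEG-2 are disordered proteins of the embryonic germ plasm that are needed for fertility. The comparison asks how embryonic transcripts differ when both are depleted.

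A conventional myosin is a dimer of heavy chains, each with an ATP-driven motor head and a coiled-coil tail, which carries a pair of light chains on each neck. In muscle the tails pack into thick filaments. *C. elegans* builds the thick filaments of body-wall muscle from MYO-3 (myosin heavy chain A, at the middle of the filament and needed to start it) and UNC-54 (heavy chain B, the major chain along its arms), and those of the pharynx, the feeding pump, from MYO-1 (heavy chain D) and MYO-2 (heavy chain C). NMY-1 and NMY-2 form non-muscle myosin II, which contracts the cell cortex. NMY-2 is loaded into the egg by the mother and drives polarization of the zygote and cytokinesis, and NMY-1 acts with it later, when the epidermis squeezes the embryo into a worm.

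All 6 genes are protein-coding and encode chains of similar size, from 1938 residues (*myo-1*) to 2003 (*nmy-2*), and the length deposited for each equals the longest coding sequence in the WBcel235 annotation. In that build, *unc-54* lies on chromosome I from 14855901 to 14863482, *myo-1* on chromosome I from 7258946 to 7267057, and *nmy-2* on chromosome I from 7926623 to 7934577, all on the minus strand. *myo-3* lies on chromosome V from 12226817 to 12234343, on the minus strand. *myo-2* and *nmy-1* lie on the plus strand of the X chromosome, from 12468061 to 12475348 and from 2909527 to 2918044. The reads were counted on whole genes, so their exons (7 in *myo-3*, 19 in *nmy-1*) and the 2 transcripts annotated for *nmy-1* were not separated. Short non-coding RNA genes overlap *myo-3* (3 genes) and *myo-1* (1 gene), but they held only 82 and 3 reads over all libraries.

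The table holds a mean for each genotype, in fpm (reads per 1000000, scaled by size factors), from which the whole reads of each library were recovered. The letters A and B name the libraries of a genotype, and neither could be tied to a labelled sample. They held 20662429 to 26017429 reads on genes. As a check of the labels, *meg-1* had 0.841 and 0.896 fpm in the *meg-1 meg-2* libraries, against 73.5 and 92.9 fpm in the wild-type libraries, and *meg-2* had 6.24 and 8.56 fpm, against 19.6 and 26 fpm. Replicates were closer in *meg-1 meg-2* than in wild type: over 8126 genes of at least 10 fpm, log2 values of library A minus library B had an SD of 0.10 in *meg-1 meg-2* and of 0.27 in wild type. The fold changes of the 6 genes and the medians of the main lists are therefore given with and without wild-type library A, which lay farther from both *meg-1 meg-2* libraries (SD 0.44 and 0.45) than library B did (0.29 and 0.30). Without it wild type is 1 library, which limma then takes to vary as little as the *meg-1 meg-2* pair, so fold changes without it are given as values with no test, and counts of calls without it rest on that spread.

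Genes were compared with limma on log2(fpm + 0.5) over the 14353 genes with a mean of at least 0.5 fpm. A gene was called at a Benjamini-Hochberg adjusted *P*-value below 0.05, and at this threshold 12.2% of all tested genes were higher and 7.11% lower in *meg-1 meg-2* embryos, or 19.3% in either direction. All 6 heavy chain genes were tested. *unc-54*, *myo-1* and *nmy-1* were called lower, none was called higher by limma, edgeR or DESeq2, or by limma at an unadjusted *P*-value below 0.05, and *myo-3*, *myo-2* and *nmy-2* did not pass. Only *unc-54* also differed by at least 1.5-fold, as 2.97% of tested genes did in that direction and 5.08% in the other (3.34% and 5.32% at an unadjusted *P*-value below 0.05). Both *meg-1 meg-2* libraries lay outside the range of both wild-type libraries for 4 of the 6, against 63.2% of all tested genes, a share close to theirs. The 4 were *myo-3*, *unc-54* and *nmy-1*, below wild type like 29.8% of tested genes, and *nmy-2*, above it like 33.3%. In this fit the spread of each gene is set almost wholly by that of genes of like level, with a weight of 120 degrees of freedom against 2 for the gene's own libraries. The SD used was 0.12 to 0.14 on the log2 scale for every heavy chain gene, whereas the gene's own SD was 0.25 to 0.45 for the 4 muscle genes, 0.15 for *nmy-2* and 0.021 for *nmy-1*. The *P*-values of the muscle genes thus rest on a spread smaller than the one these libraries show. A two-sided exact permutation of 2 libraries against 2 cannot give a *P*-value below 0.333.

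**Figure D1:**
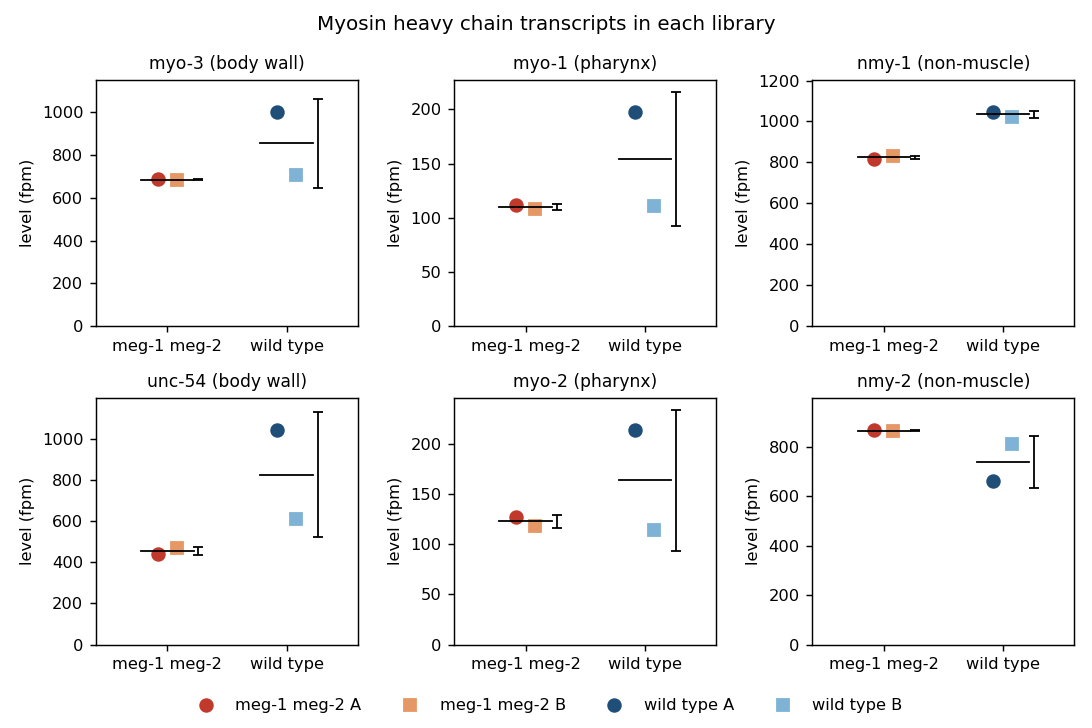
Level of each myosin heavy chain transcript in fpm (vertical axes, from 0) in the 2 *meg-1 meg-2* libraries and the 2 wild-type libraries. Points are libraries, horizontal lines are means and the bars beside them are 1 SD. Wild-type library A stands above the other 3 libraries for all 4 muscle genes, while both wild-type libraries stand above both *meg-1 meg-2* libraries for *nmy-1*.

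Of the body-wall pair, *unc-54* showed the largest difference of the 6 genes. It had 440 and 468 fpm in the *meg-1 meg-2* libraries, against 1043 and 611 fpm in the wild-type libraries, from 9407 to 27409 reads per library. The 4 values do not overlap between genotypes, but the wild-type libraries stood 1.71-fold apart. The mean was 454 ± 19.9 fpm in *meg-1 meg-2* and 827 ± 306 fpm in wild type (SD, n = 2 each), or 45.1% lower. The log2 fold change was −0.81 (SE 0.13, 95% interval −1.07 to −0.55, limma adjusted *P*=1.46e-06). Against wild-type library B alone it was −0.43. With either *meg-1 meg-2* library left out instead, so that the spread came from the wild-type pair, the log2 fold change was −0.77 or −0.86 and did not pass (limma adjusted *P*=0.183 and 0.0875). The call was also made by edgeR's quasi-likelihood test on the recovered reads (adjusted *P*=0.00189) but not by DESeq2 (adjusted *P*=0.0801) or by limma without its mean trend (adjusted *P*=0.0662).

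*myo-3*, whose product starts the thick filament, had 686 and 684 fpm in the *meg-1 meg-2* libraries, against 1002 and 708 fpm in the wild-type libraries. Wild-type library B exceeded the *meg-1 meg-2* libraries by little, and nearly all of the difference lay in library A. The means were 685 ± 1.53 fpm in *meg-1 meg-2* and 855 ± 208 fpm in wild type (SD, n = 2 each). The log2 fold change of −0.30 (SE 0.13, 95% interval −0.55 to −0.05) did not pass the adjusted threshold (limma adjusted *P*=0.083), and without library A it was −0.05. In whole embryos, fewer muscle cells and less RNA per muscle cell cannot be told apart, for this gene or any other.

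The body-wall chains did not keep a fixed proportion. Per kb of coding length, the ratio of *unc-54* to *myo-3* within a library was 0.643 and 0.687 in *meg-1 meg-2*, against 1.04 and 0.866 in wild type. Such a ratio does not depend on how the libraries are scaled to each other. It was lower in both *meg-1 meg-2* libraries than in either wild-type library, and the gap between the nearest libraries of the genotypes (0.687 and 0.866) was about as wide as the gap within wild type. The counting error of this ratio was at most 1.34%.

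The pharyngeal pair was the less abundant of the muscle genes and showed the largest difference between the wild-type libraries. *myo-1* had 112 and 108 fpm in the *meg-1 meg-2* libraries, against 198 and 110 fpm in the wild-type libraries. Wild-type library B lay between the *meg-1 meg-2* libraries. The means were 110 ± 2.47 fpm in *meg-1 meg-2* and 154 ± 61.8 fpm in wild type (SD, n = 2 each), and the difference is smaller than the SD between the wild-type libraries. The log2 fold change was −0.42 (SE 0.14, 95% interval −0.70 to −0.15, limma adjusted *P*=0.0195), and without library A it was −0.01. This call thus rested on 1 wild-type library.

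*myo-2* had 127 and 118 fpm in the *meg-1 meg-2* libraries, against 214 and 114 fpm in the wild-type libraries. Wild-type library B was the lowest of the 4 and library A the highest. The log2 fold change of −0.35 (SE 0.14, 95% interval −0.62 to −0.07) did not pass (limma adjusted *P*=0.0621), and it turned to 0.10 without library A. The pharyngeal genes moved together in every library. The ratio of *myo-1* to *myo-2* per kb was 0.884 and 0.919 in *meg-1 meg-2*, against 0.931 and 0.973 in wild type. The nearest libraries of the genotypes differed by less than the largest counting error of the ratio, 2.97%.

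Wild-type library A exceeded library B by 1.42-fold for *myo-3*, 1.71-fold for *unc-54*, 1.79-fold for *myo-1* and 1.87-fold for *myo-2*. A difference of at least 1.5-fold in that direction was seen for 6.55% of tested genes, and 3 of the 4 muscle genes were among them. Against this, the *meg-1 meg-2* libraries differed by at most 0.10 on the log2 scale for any of the 4 muscle genes.

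The non-muscle genes behaved otherwise. *nmy-1* had 818 and 831 fpm in the *meg-1 meg-2* libraries, against 1047 and 1022 fpm in the wild-type libraries. Each genotype's libraries lay close together, and those of the genotypes did not overlap. The means were 824 ± 9.05 fpm in *meg-1 meg-2* and 1035 ± 18.0 fpm in wild type (SD, n = 2 each), or 20.3% lower. The log2 fold change was −0.33 (SE 0.12, 95% interval −0.57 to −0.08, limma adjusted *P*=0.0468). It stayed between −0.31 and −0.35 whichever wild-type library was left out. With either *meg-1 meg-2* library left out it was −0.32 or −0.34 and did not pass (limma adjusted *P*=0.721 and 0.72). Of the 6 genes it was the only one called by both edgeR (adjusted *P*=0.0211) and DESeq2 (adjusted *P*=0.00806). In limma, which gave *nmy-1* a wider spread than its own libraries show, the adjusted *P*-value lay just inside the threshold, and without the mean trend it was 0.183.

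*nmy-2* had 867 and 864 fpm in the *meg-1 meg-2* libraries, against 663 and 813 fpm in the wild-type libraries. It was the only heavy chain gene of the 6 whose mean was higher in *meg-1 meg-2*, and the only one with less transcript in wild-type library A than in library B. The means were 866 ± 2.36 fpm in *meg-1 meg-2* and 738 ± 106 fpm in wild type (SD, n = 2 each), and the log2 fold change of 0.24 (SE 0.12, 95% interval −0.01 to 0.48) did not pass (limma adjusted *P*=0.164). Without library A it was 0.09.

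**Figure D2:**
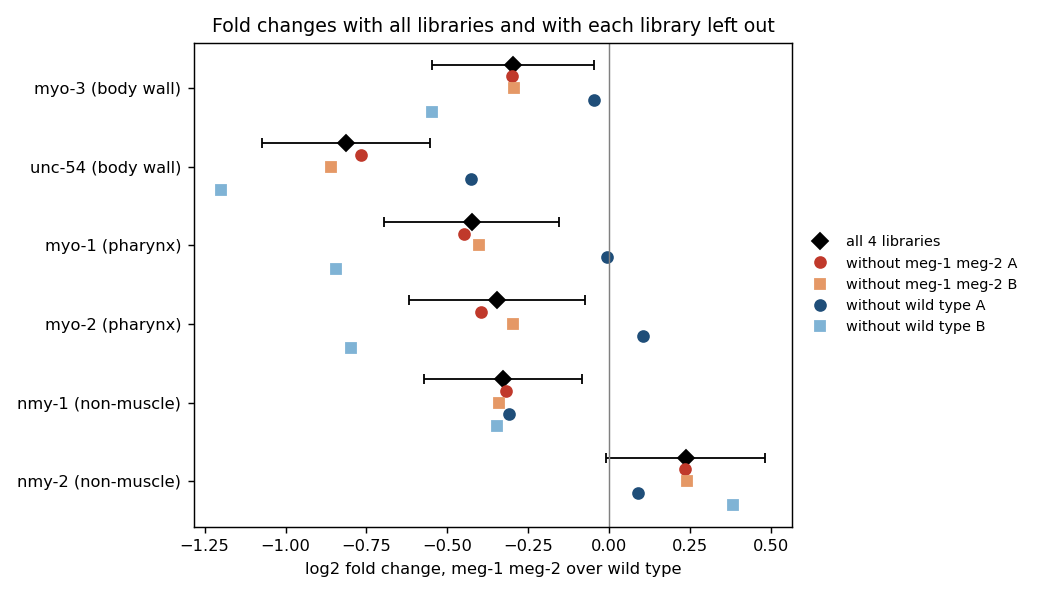
Log2 fold change for each heavy chain gene (horizontal axis, positive where *meg-1 meg-2* is higher), from limma on all 4 libraries (diamonds, with 95% intervals) and with each library left out in turn. Without wild-type library A, the values of *myo-3*, *myo-1* and *myo-2* lie between −0.05 and 0.10, that of *unc-54* is −0.43 and that of *nmy-1* is −0.31.

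The proportion of the non-muscle pair differed between the genotypes. Per kb, the ratio of *nmy-1* to *nmy-2* was 0.962 and 0.981 in *meg-1 meg-2*, against 1.61 and 1.28 in wild type. It was near 1 in both *meg-1 meg-2* libraries and above 1 in both wild-type libraries, which also differed between themselves. The sum of the pair was alike in all libraries, with 1685 and 1695 fpm in *meg-1 meg-2* and 1711 and 1835 fpm in wild type.

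When the 4 muscle genes were summed, they had 1365 and 1379 fpm in *meg-1 meg-2*, against 2456 and 1543 fpm in wild type. The ratio of muscle to non-muscle heavy chain transcripts was 0.810 and 0.814 in *meg-1 meg-2*, against 1.44 and 0.841 in wild type. Wild-type library B thus had nearly the ratio of the *meg-1 meg-2* libraries, and only library A held more muscle than non-muscle heavy chain transcript. For the body-wall genes alone the ratio to the non-muscle pair was 0.668 and 0.680 in *meg-1 meg-2*, against 1.19 and 0.718 in wild type. For the pharyngeal genes alone it was 0.142 and 0.134, against 0.240 and 0.122, so the genotypes overlapped.

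**Figure D3:**
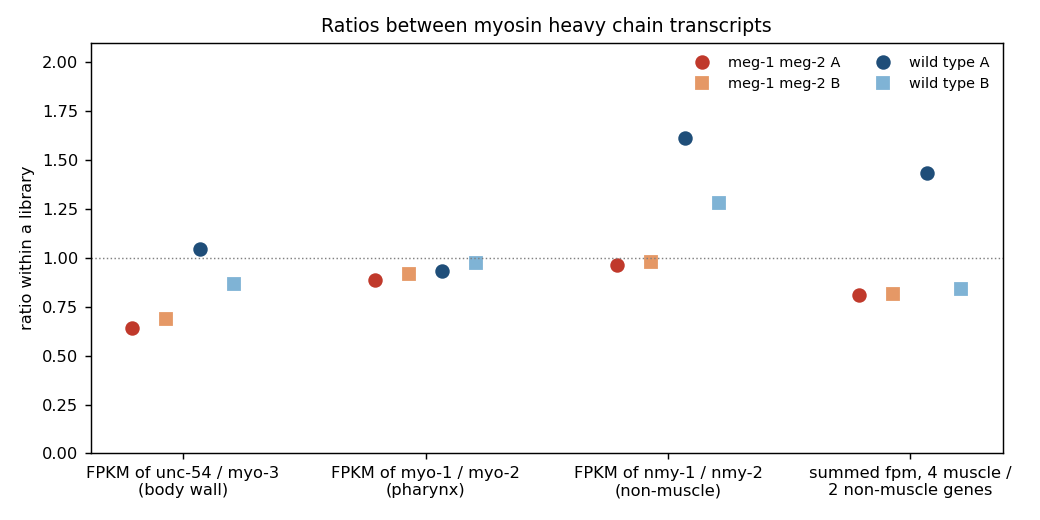
Ratios between heavy chain transcripts within each library (vertical axis, from 0; the dotted line marks 1). The first 3 sets are ratios of FPKM with the coding length in kb and the last is a ratio of summed fpm. The ratios *unc-54* to *myo-3* and *nmy-1* to *nmy-2* are lower in both *meg-1 meg-2* libraries, whereas the ratio of muscle to non-muscle genes sets wild-type library A (1.44) apart from the other 3 (0.810 to 0.841).

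Levels between genes were compared per kb of coding length (FPKM). In *meg-1 meg-2* the order was *nmy-2* (144 ± 0.393 FPKM), *nmy-1* (140 ± 1.54), *myo-3* (116 ± 0.258), *unc-54* (77.1 ± 3.38), *myo-2* (21 ± 1.05) and *myo-1* (18.9 ± 0.425; SD, n = 2 each). All neighbours kept this order in both libraries. In wild type it was *nmy-1* (176 ± 3.06 FPKM), *myo-3* (145 ± 35.2), *unc-54* (140 ± 51.9), *nmy-2* (123 ± 17.6), *myo-2* (28.0 ± 12.0) and *myo-1* (26.5 ± 10.6; SD, n = 2 each). There *nmy-1* lay above *myo-3*, *nmy-2* above *myo-2*, and *myo-2* above *myo-1* in both libraries. The order of *myo-3* and *unc-54*, and that of *unc-54* and *nmy-2*, turned between the wild-type libraries. By the SDs, only *nmy-2* and *myo-2* of these wild-type neighbours differed beyond the spread of both. The body-wall genes were several times more abundant than the pharyngeal ones in every library. The pharyngeal genes were close to the middle of all tested genes, at percentiles 57.4 and 59 of FPKM, and the other 4 genes at percentiles 91.3 to 94.8.

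The thick filament partners form a list of 11 genes, all tested. Of these, 6 were called lower in *meg-1 meg-2* embryos (limma adjusted *P* below 0.05), against 7.11% of all tested genes. On the recovered reads edgeR called 5 lower and DESeq2 called 3, where they called 1138 and 899 of the 14353 tested genes lower. By contrast 0 were higher, also at an unadjusted *P*-value below 0.05, in edgeR or in DESeq2. The median log2 fold change was −0.40, against −0.01 for all tested genes. Every one of the 11 had a lower mean in *meg-1 meg-2*, and every one was higher in wild-type library A than in library B. Without library A the median was −0.09. Paramyosin, *unc-15*, the core of the filament on which myosin is laid, had 143 and 146 fpm in *meg-1 meg-2*, against 348 and 221 fpm in wild type (log2 fold change −0.94, SE 0.13, limma adjusted *P*=1.97e-08). The titin-like *ttn-1* had 632 and 612 fpm in *meg-1 meg-2*, against 1169 and 782 fpm in wild type, or −0.62 on the log2 scale (limma adjusted *P*=1.6e-04). The kinase *unc-82*, needed to organize thick filaments, had −0.46, the essential light chain *mlc-3* had −0.43 and the obscurin homolog *unc-89* had −0.41. The giant kinase twitchin, *unc-22*, had −0.40, with 436 and 430 fpm in *meg-1 meg-2*, against 765 and 427 fpm in wild type. Its wild-type library B lay below both *meg-1 meg-2* libraries, so its call rested on wild-type library A. The regulatory light chains did not pass, with log2 fold changes of −0.31 for *mlc-1* and −0.20 for *mlc-2*. The myosin chaperone *unc-45*, which is also used outside muscle, had −0.16 and did not pass.

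Of 15 partners of non-muscle myosin, 2 were called higher and 1 lower, shares near those of all tested genes (12.2% and 7.11%). The median log2 fold change was 0.18, and 0.04 without wild-type library A. All 15 were lower in wild-type library A than in library B, with a median log2 difference of −0.18, against −0.08 for all tested genes. The 2 that were higher were *rga-3*, a GTPase-activating protein, with 76.2 and 76.6 fpm in *meg-1 meg-2*, against 52.8 and 59.9 fpm in wild type (log2 fold change 0.44, limma adjusted *P*=0.0149), and *nop-1*, which promotes cortical contraction in the zygote, with 201 and 206 fpm in *meg-1 meg-2*, against 132 and 170 fpm in wild type (log2 fold change 0.45, limma adjusted *P*=0.00702). The kinases *let-502* and *mrck-1* and the myosin phosphatase subunit *mel-11*, which set myosin activity in the elongating epidermis, were singled out after their values were seen. Their log2 fold changes were −0.22, −0.20 and −0.24, none of which passed, with both *meg-1 meg-2* libraries below both wild-type libraries. That held for 4 of the 15 partners, against 29.8% of all tested genes, and the reverse for 8, against 33.3%. The non-muscle light chains *mlc-4* and *mlc-5* had log2 fold changes of 0.24 and −0.01 and did not pass.

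Among 12 other myosin heavy chain genes, 3 were called lower by each of limma, edgeR and DESeq2, against 7.11% of all tested genes in limma. None was called higher, also at an unadjusted *P*-value below 0.05. The median log2 fold change was −0.15, and 0.01 without wild-type library A. In limma the 3 called lower were *hum-4* (−0.56, limma adjusted *P*=3.52e-04), the class VII myosin *hum-6* (−0.51, limma adjusted *P*=0.0013) and the class I myosin *hum-5* (−0.49, limma adjusted *P*=0.00524). For all 3, both *meg-1 meg-2* libraries lay below both wild-type libraries, as for 6 of the 12 and 29.8% of all tested genes. The reverse held for 1 of the 12, against 33.3% of all tested genes. *myo-5* had 144 and 134 fpm in *meg-1 meg-2*, against 221 and 128 fpm in wild type. *myo-6* had 55.8 and 54.8 fpm in *meg-1 meg-2*, against 77.0 and 47.6 fpm in wild type. In both of these genes wild-type library B was the lowest of the 4 and library A the highest, as for *myo-2*, and neither passed (limma adjusted *P*=0.135 and 0.55).

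None of 6 transcription factors that switch on muscle or pharyngeal genes was called in either direction by limma, edgeR or DESeq2. In limma 19.3% of all tested genes were called. At an unadjusted limma *P*-value below 0.05, 1 of the 6 was lower. The MyoD homolog *hlh-1* had 43.3 and 46.8 fpm in *meg-1 meg-2*, against 39.6 and 46.8 fpm in wild type (log2 fold change 0.06, limma adjusted *P*=0.793). By in situ hybridization, the study saw *hlh-1* RNA in descendants of the germline founder cell in most *meg-1 meg-2* embryos scored. It saw none there in wild type. A level over whole embryos does not separate these few cells from the rest. The median of the 6 was −0.08, and −0.17 without wild-type library A. The SRF-like factor *unc-120* had 67.0 and 71.4 fpm in *meg-1 meg-2*, against 69.0 and 80.0 fpm in wild type (log2 fold change −0.10). The FoxA factor of the pharynx, *pha-4*, had 97.4 and 102 fpm in *meg-1 meg-2*, against 98.5 and 110 fpm in wild type (log2 fold change −0.06). For these 3 the genotypes overlapped, and each had less transcript in wild-type library A than in library B, the opposite of the muscle heavy chain genes. The median log2 difference, library A minus library B, was −0.18 for the 6 and −0.08 for all tested genes, the same direction. The list was not uniform, since 2 of the 6 were higher in library A. Both *meg-1 meg-2* libraries lay below both wild-type libraries for 2 of the 6, against 29.8% of all tested genes. They lay above for 1, against 33.3%. The 1 with a low unadjusted *P*-value, named after its values were seen, was the pharyngeal NK-2 class factor *ceh-22*, an activator of *myo-2*. It had 8.19 and 8.21 fpm in *meg-1 meg-2*, against 12.1 and 10.6 fpm in wild type (log2 fold change −0.44, limma adjusted *P*=0.0984).

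**Figure D4:**
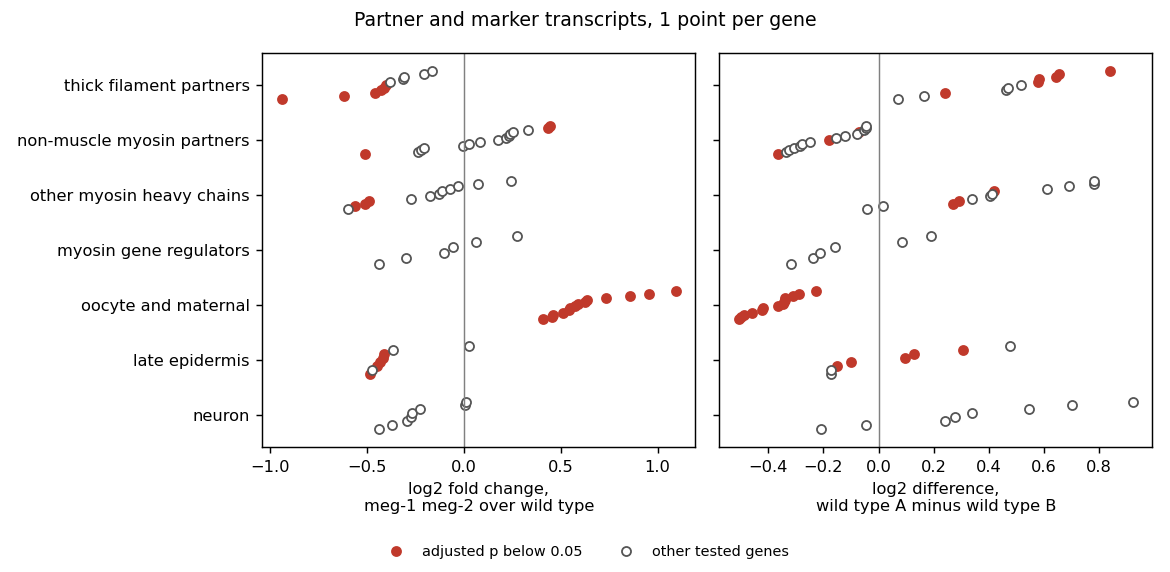
Log2 fold change (left, positive where *meg-1 meg-2* is higher) and log2 difference between wild-type libraries A and B (right) for the tested genes of each list, 1 point per gene, filled where the adjusted *P*-value of limma for the genotype was below 0.05. All 11 thick filament partners lie below 0 on the left and above 0 on the right, and all 14 oocyte and maternal transcripts lie above 0 on the left and below 0 on the right.

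Transcripts of oocytes, and 5 of the 8 tested ones listed for the late epidermis, also differed between the genotypes. Of 14 oocyte and maternal transcripts, 14 were called higher in *meg-1 meg-2* embryos, against 12.2% of all tested genes. They had 1980 and 2019 fpm in sum, against 1132 and 1450 fpm in wild type. All 14 were lower in wild-type library A than in library B, with a median log2 difference of −0.36, against −0.08 for all tested genes. Of 9 transcripts listed for the late epidermis, 8 were tested and 5 were called lower, against 7.11% of all tested genes. *lin-26*, *elt-3* and *dpy-13* were not called, with log2 fold changes of 0.03, −0.48 and −0.36. The 9 had 5086 and 5461 fpm in sum, against 7188 and 6935 fpm in wild type. Of the 8 tested, 4 were higher in wild-type library A than in library B. This list thus did not share the split of the wild-type libraries seen in the muscle genes. Without wild-type library A, the medians of the maternal and epidermal lists were 0.40 and −0.39, against 0.58 and −0.43 with all libraries. With 1 *meg-1 meg-2* library left out, nearly all of these calls were lost, as were nearly all calls among all tested genes. Of 8 neuronal transcripts none was called by limma, edgeR or DESeq2, against 19.3% of all tested genes in limma. At an unadjusted limma *P*-value below 0.05, 2 were lower. The 8 had 165 and 164 fpm in sum in *meg-1 meg-2*, against 195 and 172 fpm in wild type. Of these 8, 6 were higher in wild-type library A than in library B, as were 11 of the 12 other myosin heavy chain genes. Median log2 differences between these libraries were 0.31 and 0.41 for the 2 lists, against −0.08 for all tested genes. The split was thus not limited to muscle genes. The study speaks of harvests from its large cultures as early embryos and gives no count of stages for these collections, and the part of embryo age in the differences of the heavy chain genes was not tested. Adult worms carry much muscle, so markers of adult tissue were examined as well. 9 genes of adult yolk and cuticle summed to 6.37 and 6.72 fpm in *meg-1 meg-2*, against 6.01 and 7.25 fpm in wild type. The adult collagen *col-19* had 0 reads in both *meg-1 meg-2* libraries and 0.038 fpm in each wild-type library, and 7 sperm transcripts summed to 3.07 to 3.39 fpm in every library.

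The genes whose profile over the 4 libraries was nearest to the mean of the 4 muscle heavy chains were *Y34B4A.10*, *nep-17* and the innexin *unc-9*, out of 7993 protein-coding genes of at least 10 fpm. Their root mean square distances were 0.023, 0.027 and 0.027 on the log2 scale. *nep-17*, named for neprilysin-like peptidases, had 175 and 171 fpm in *meg-1 meg-2*, against 298 and 184 fpm in wild type. The mean of the non-muscle pair was nearly flat, since its members differ in direction, and the nearest genes were *rnf-121*, *egrh-3* and *Y87G2A.13* (0.0037, 0.0060 and 0.0062). With 4 libraries such likeness is a description of these libraries only.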

How the data were processed

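Total RNA from embryos was depleted of rRNA and made into stranded libraries from 1 µg with 12 cycles of PCR. For the authors' table, HISAT2 placed the reads on ce10, HTSeq-count assigned them to genes, and DESeq2 scaled and compared the genotypes. Versions, annotation release and strand setting are not given in the sources used here. The signal that the authors deposited is the mean fpm of the 2 libraries of a genotype. The FPKM that the authors deposited are these means per bp of length, and FPKM was recomputed per library with the length in kb. The deposited log2 fold changes and adjusted p-values of the authors' own comparison were not used.

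Reads per library were recovered as the whole numbers that, times a step per library, give the mean within a relative tolerance of 8e-15. 1 pair of whole numbers was found for 100% of wild-type and 99.998% of *meg-1 meg-2* means, and the 1 remaining gene was set by the definition of the size factors, which the recovered reads then met to 8.88e-16. A count of 0 allows up to 3 reads, or 0.114 to 0.149 fpm. Counting error does not cover PCR copies.

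limma (version 3.58.1, R 4.3.3; mean trend, no block) was run on log2(fpm + 0.5) over 14353 genes with a mean of at least 0.5 fpm. Alternatives were other pseudocounts, floors and scalings, limma without trend or with robust variances, edgeR (version 4.0.16) and DESeq2 (version 1.42.0) on the recovered reads, protein-coding genes only, and each library left out. Positions come from WBcel235, matched by WormBase identifier for 41759 of 42048 genes, and none was converted from ce10. No sequence is printed.

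The members and lists were chosen with earlier results of these data known. Named were the 6 members, *meg-1* and *meg-2*, the called genes of 4 partner lists (or the 3 most abundant where fewer than 3 were called), and the 3 genes nearest in profile to each mean; names outside this rule were chosen for their role or after their values were seen. 1 called gene of the non-muscle partner list is not reported here by name.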

Additional observations from a re-analysis of the deposited data

How the results depend on the processing

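The cause of the following differences was not tested. With each library left out in turn, log2 fold changes ranged from −0.548 to −0.046 (*myo-3*), −1.20 to −0.43 (*unc-54*), −0.843 to −0.005 (*myo-1*), −0.80 to 0.10 (*myo-2*), −0.35 to −0.31 (*nmy-1*) and 0.09 to 0.38 (*nmy-2*). Leaving out wild-type library B, with the spread taken from the *meg-1 meg-2* pair, brought all 6 genes past the threshold. Leaving out either *meg-1 meg-2* library, with the spread taken from the wild-type pair, left none of the 6 past it. In the same way the number of genes called higher ranged from 41 to 4585 and lower from 24 to 3332. Lists gave 0 to 11 thick filament partners lower, 0 to 9 non-muscle partners higher and 0 to 4 lower, 0 to 8 other heavy chains lower, 0 to 14 maternal transcripts higher and 0 to 6 epidermal transcripts lower. DESeq2 called 3 thick filament partners lower, and 899 of all tested genes.

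The call of *unc-54* was lost at −0.81 without a filter, on the FPKM scale and without the trend, and at −0.89 in DESeq2. That of *myo-1* was lost at −0.42 without a filter, on the FPKM scale and without the trend, at −0.46 (TMM), −0.53 (upper quartile), −0.52 (quantile), −0.49 (reads scaled to their total without rRNA) and −0.51 (DESeq2). That of *nmy-1* was lost at −0.33 with a pseudocount of 2 fpm, without a filter, on the FPKM scale and without the trend. *myo-2* passed at −0.35 with a floor of 5 fpm and among protein-coding genes. No other setting turned a direction, and no scaling moved the median of all genes by more than 0.10.

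All genes called higher and lower were 1748 and 1020. They were 3 and 1 without a filter, 95 and 72 on the FPKM scale, 456 and 253 without the trend, 729 and 427 where 1.5-fold was also asked for, and 764 and 480 where 1.5-fold was joined to an unadjusted *P*-value below 0.05. Upper-quartile scaling called 1033 genes higher and 1091 lower, moving the share of calls that were higher to 48.6% from 63.2%.

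No paired analysis was possible because the libraries recovered from the means could not be tied to labelled samples, whose titles hold no replicate number.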
